A study of Homo sapiens with 12 samples.

Results

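Messenger RNA of 52 human genes of very long genomic span was followed in H9 cells that had received an oligonucleotide against LINE1. The genes were those of a written list of symbols found in the deposited count table, 52 of its 53717 genes, and no measured value enters the rule, although the list was drawn up with earlier results of these data known. In the GENCODE 29 annotation they spanned 0.552 to 2.47 Mb (megabases), with a median of 1.18 Mb, and 32 of them reached 1 Mb or more, so most were well above 500 kb. Exons, summed over the transcripts of a gene, made up 0.24 to 5.82% of that span (median 0.902%), and the longest intron measured 94.4 to 1160 kb. These lengths are of the GRCh38 assembly, whereas the reads were counted on hg19, and they serve here only as a property of each gene.

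RNA polymerase II copies a gene from end to end at a limited speed, so a very long gene needs hours for each transcript and its long introns must then be spliced out. Introns also hold many copies of transposons, LINE1 among them. Many of the longest human genes encode adhesion molecules, receptors and scaffolds of neurons, and several (FHIT, WWOX and IMMP2L among them) lie at common fragile sites, places where chromosomes tend to break under replication stress.

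H9 is a long-established line of human embryonic stem cells, grown here in RSeT, a medium for a naive-type state. The series asks how LINE1 bears on genes of the embryo's 8-cell stage. The cells received 1 of 3 fluorescein-labelled oligos at 25 nM by lipofection: ASO-L1, antisense to LINE1 RNA; sO-L1, a sense oligo of LINE1; and ASO-Ctr, a non-specific antisense control. All 3 groups were given 0.7 uM trans-ISRIB, an inhibitor of the integrated stress response, 5 uM emricasan, a caspase inhibitor, and 10 uM Y-27632, an inhibitor of ROCK kinase, which were taken out at 24 h. Fluorescent cells were sorted at 48 h, and poly(A) RNA was made into strand-specific libraries, 4 per group and 12 in all. Each group is therefore 1 cell line, selected for uptake of the oligo. The count table has no entry for LINE1, and whether ASO-L1 lowered its target was not analysed here. Nothing in the labels says whether replicates came from separate cultures. The p-values therefore measure only the spread between these libraries, which may be technical.

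Reads counted in genes came to 22.8 to 55.1 M per library, and a floor of 3 reads (what a count of 0 still permits) equalled 0.0534 to 0.128 CPM, the unit of level used here, in which each count is scaled by its library. Of 10 pluripotency markers all 10 passed the filter on low counts, and their summed level was 8057 to 8289 CPM in ASO-Ctr, 8008 to 8521 in sO-L1 and 7899 to 8113 in ASO-L1. Markers of neural cells summed to 798.1 to 880.6, 854.1 to 980.2 and 851.9 to 954.5 CPM, with 7 of 10 past the filter, and markers of fibroblasts to 132.2 to 158.3, 121.6 to 150.1 and 124.4 to 147 CPM, with 6 of 10 past it and 1 at 0 reads. Single markers were called both ways in ASO-L1 against ASO-Ctr, 1 higher and 4 lower of the pluripotency markers, 2 higher and 2 lower of the 7 neural and likewise of the 6 fibroblast markers tested by edgeR. Over all genes tested 21.2% were called higher and 23.1% lower, shares that so few markers cannot be told apart from. NES rose by 0.40 on the log2 scale and DCX fell by 0.78 among the neural ones. Among those of fibroblasts TWIST1 rose by 3.66 (from 0.311 to 3.89 CPM) and THY1 by 0.42, while PDGFRA fell by 0.90 and COL1A2 by 0.73. The part of these cell types in the results below was not tested, and in bulk RNA fewer cells of a type cannot be told apart from less RNA per cell.

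Promoters of 4 genes that stand for the patterns found are shown from RefSeq (GRCh38.p14), each from 250 bases before to 50 bases after the annotated start, 5′ to 3′ on the strand of the gene, with every CpG in capitals. LPP (chr3:188153648-188153947, plus strand, 19 CpGs) and FRMPD4 (chrX:11822189-11822488, plus strand, 2 CpGs) had lower RNA after ASO-L1. IMMP2L (chr7:111562443-111562742, minus strand, 31 CpGs) had lower RNA after both LINE1 oligos. PCDH9 (chr13:67230287-67230586, minus strand, 20 CpGs) had higher RNA after ASO-L1.
LPP: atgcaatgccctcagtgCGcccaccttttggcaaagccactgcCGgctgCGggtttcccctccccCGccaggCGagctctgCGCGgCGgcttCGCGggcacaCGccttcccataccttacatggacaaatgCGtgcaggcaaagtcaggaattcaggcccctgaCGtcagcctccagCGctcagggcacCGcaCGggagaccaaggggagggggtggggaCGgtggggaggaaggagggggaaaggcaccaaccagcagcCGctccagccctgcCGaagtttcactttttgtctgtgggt
FRMPD4: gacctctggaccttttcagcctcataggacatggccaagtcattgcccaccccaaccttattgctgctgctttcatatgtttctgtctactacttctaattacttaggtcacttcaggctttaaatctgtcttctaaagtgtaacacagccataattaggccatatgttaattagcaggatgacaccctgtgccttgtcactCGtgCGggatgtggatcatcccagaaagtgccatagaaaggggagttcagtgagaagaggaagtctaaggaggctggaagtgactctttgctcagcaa
IMMP2L: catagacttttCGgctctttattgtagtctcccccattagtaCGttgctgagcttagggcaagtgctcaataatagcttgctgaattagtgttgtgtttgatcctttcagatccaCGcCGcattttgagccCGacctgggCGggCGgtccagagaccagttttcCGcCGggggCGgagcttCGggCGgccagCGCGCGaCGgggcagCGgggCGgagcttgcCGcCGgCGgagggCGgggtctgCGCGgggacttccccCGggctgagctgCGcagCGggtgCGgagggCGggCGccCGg
PCDH9: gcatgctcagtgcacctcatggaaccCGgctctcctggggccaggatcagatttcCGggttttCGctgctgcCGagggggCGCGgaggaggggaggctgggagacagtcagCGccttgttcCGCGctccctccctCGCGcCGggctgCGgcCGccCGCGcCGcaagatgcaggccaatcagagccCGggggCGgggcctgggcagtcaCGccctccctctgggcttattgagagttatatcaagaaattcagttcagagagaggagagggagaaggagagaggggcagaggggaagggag
The strongly lowered genes LPP and FRMPD4 thus differ widely in CpG content. RefSeq promoters were matched for 44 of the 52 genes. Their median was 16.5 CpGs, against 24 in 15706 promoters of protein-coding genes tested and 14 in all 35116 promoters. Unlike the giant genes, these 2 wider sets can hold several starts of a gene. The 27 matched genes called lower after ASO-L1 had a median of 17 CpGs and the 11 tested but not called lower a median of 8. The motif TATAAA, searched on both strands, was in 3 of the 44 promoters (6.82%), near its share of 6.44% in promoters of tested genes. The windows of the giant genes are those of 1 annotated start per gene, and which start the cells used is not given by the counts.

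Of the 52 giant genes, 41 passed the filter and were tested. In ASO-L1 against ASO-Ctr 29 of the 41 fell and 1, PCDH9, rose, at an adjusted p under 0.05 in edgeR's quasi-likelihood test, and 11 were not called. Over all 17264 genes tested, 23.1% were called lower and 21.2% higher in this comparison. The giant genes' median log2 fold change was -0.69, against -0.00279 over all genes, and 37 of the 41 had a fold change below 0. The 29 that fell did so in each of the 4 replicate numbers, by 1.21-fold (CNTNAP2) to 3.17-fold (FRMPD4). For 27 of the 41 (65.9%) every ASO-L1 library lay below every ASO-Ctr library, against 17.0% of all genes tested. Genes near the filter can pass it through the group where they are high. Of the 29 giant genes with a mean of at least 2 CPM over all 12 libraries, 25 fell (86.2%) and 0 rose, with a median of -0.74. This cut, set after seeing the data, does not remove that limit, since the mean includes the high group. FRMPD4, for one, averaged 2.06 CPM over all libraries, with 2.85 in ASO-Ctr and 0.875 in ASO-L1. The cut also leaves out PCDH9, the gene that rose.

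Against sO-L1, the sense oligo, 26 of 41 fell in ASO-L1 and 1 rose, again PCDH9, where 22.9% of all genes were called lower and 21.1% higher. The median log2 fold change was -0.50 against -0.00321 over all genes. In 21 of the 41 all ASO-L1 libraries lay below all sO-L1 libraries, against 16.2% of all genes. Both comparisons use the same ASO-L1 libraries, so they are not independent of each other. They named 24 genes in common as lower, with 5 called lower against ASO-Ctr alone (DPP10, PARD3B, SMYD3, IMMP2L and FHIT) and 2 against sO-L1 alone (ROBO2 and WWOX).

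**Figure D1:**
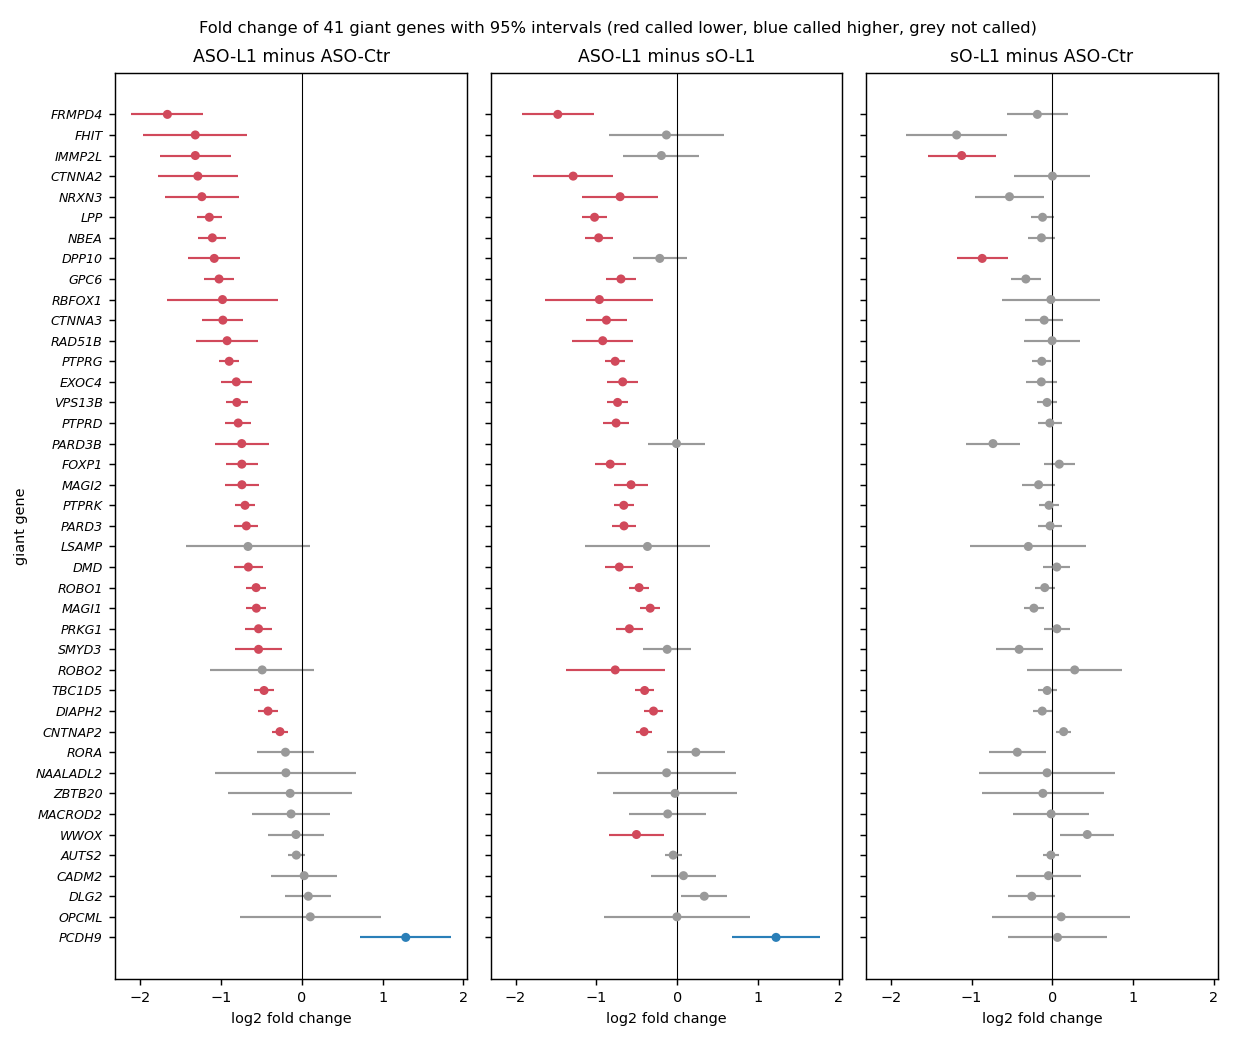
Log2 fold change (x axis) of the 41 giant genes tested (y axis, 1 line each) in the 3 comparisons, with nominal 95% intervals. Against ASO-Ctr 29 of 41 genes were called lower (red) and 1 higher (blue), whereas in sO-L1 minus ASO-Ctr 2 were called lower.

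In all, the 52 genes held 0.135 to 0.143% of the scaled counts of the ASO-Ctr libraries, 0.128 to 0.133% in sO-L1 and 0.0856 to 0.102% in ASO-L1, groups that do not overlap. Per kb of exon, the highest mean levels over all libraries were those of PARD3 (11.4 CPM per kb), DIAPH2 (10), GPC6 (8.33), CNTNAP2 (8.26) and PTPRK (8.19). At the other end of those tested stood ZBTB20, a zinc-finger repressor, with 0.0148 CPM per kb.

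Below, falls, rises and differences of a gene are on the log2 scale from edgeR, and where 2 values stand together the first is against ASO-Ctr and the second against sO-L1. The counts of each role stand beside 23.1% and 22.9% of all genes called lower in these comparisons, and most roles hold few tested genes. Adhesion and junction genes formed the largest role, with 13 of 14 tested, of which 9 fell and 1 rose against ASO-Ctr and 8 fell and 1 rose against sO-L1. LPP, a LIM-domain protein of focal adhesions and cell contacts, stood at 43.1, 57.3, 50.6 and 50.3 CPM in ASO-Ctr, 40.4, 48.5, 50.3 and 45.5 in sO-L1, and 19.6, 23.2, 21.1 and 27.1 in ASO-L1. All 4 ASO-L1 libraries lay below every other library, and the log2 fold change was -1.14 (SE 0.07, adjusted p = 8.5e-09) against ASO-Ctr and -1.02 (SE 0.07, adjusted p = 2.69e-08) against sO-L1. The alpha-catenins, which tie cadherins to actin, were lower as well. CTNNA2 measured 1.54, 1.74, 1.64 and 1.65 CPM in ASO-Ctr, 1.83, 1.87, 1.29 and 1.54 in sO-L1, and 0.324, 0.752, 0.653 and 0.927 in ASO-L1, with no overlap between ASO-L1 and the other groups, and fell by 1.29 (SE 0.24, adjusted p = 0.000308) against ASO-Ctr and by 1.29 (SE 0.23, adjusted p = 0.000278) against sO-L1. CTNNA3 measured 6.12, 5.54, 5.48 and 5.74 CPM in ASO-Ctr, 6.5, 5.89, 4.41 and 4.65 in sO-L1, and 3.46, 3.25, 2.13 and 2.84 in ASO-L1, and its log2 fold changes were -0.98 (SE 0.12, adjusted p = 6.25e-06) and -0.88 (SE 0.12, adjusted p = 1.76e-05).

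PARD3, the polarity scaffold of tight junctions, was among the most abundant of the giant genes, at 81.5, 91.4, 84.9 and 85.4 CPM in ASO-Ctr, 82.2, 85.1, 84 and 84.5 in sO-L1, and 41.1, 56.8, 53.3 and 62.9 in ASO-L1. The ASO-L1 libraries again lay below all others, with log2 fold changes of -0.69 (SE 0.07, adjusted p = 1.03e-06) and -0.66 (SE 0.07, adjusted p = 1.59e-06). MAGI2, a junctional scaffold, measured 11, 12.8, 10.1 and 10.3 CPM in ASO-Ctr, 7.71, 11.3, 10.1 and 10.1 in sO-L1, and 4.83, 7.71, 6.87 and 6.98 in ASO-L1, and it fell by 0.74 (SE 0.10, adjusted p = 1.72e-05) and 0.57 (SE 0.10, adjusted p = 0.000208), although 1 ASO-L1 and 1 sO-L1 library met at 7.71 CPM. Its relative MAGI1 had means of 110.3 ± 6.17 CPM in ASO-Ctr, 94 ± 2.9 in sO-L1 and 74.7 ± 7.53 in ASO-L1 (SD, n = 4) and fell by 0.56 (SE 0.06, adjusted p = 1e-06) against ASO-Ctr and by 0.33 (SE 0.06, adjusted p = 0.000192) against sO-L1. NRXN3, a presynaptic adhesion receptor, ranged widely in the control, at 3.6, 2.77, 1.35 and 2.38 CPM in ASO-Ctr, 1.63, 1.83, 1.76 and 1.54 in sO-L1, and 1.04, 0.994, 1.03 and 1.1 in ASO-L1. Its ASO-L1 values were close together and below all others, with log2 fold changes of -1.24 (SE 0.22, adjusted p = 0.000217) and -0.71 (SE 0.22, adjusted p = 0.0167), and the call against sO-L1 failed in 4 of 16 fits with 1 library or 1 replicate number left out (replicate number 2, sO-L1 replicate 2 or 3, or ASO-L1 replicate 2, adjusted p up to 0.11). CNTNAP2, of the neurexin superfamily, had the smallest fall of those called against ASO-Ctr (against sO-L1 the smallest was that of DIAPH2), from 141 ± 13.3 CPM in ASO-Ctr and 155 ± 13 in sO-L1 to 117 ± 5.1 in ASO-L1 (SD, n = 4), or -0.27 (SE 0.05, adjusted p = 0.000153) and -0.41 (SE 0.05, adjusted p = 2.39e-06).

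PCDH9, a protocadherin, went the other way. It measured 0.685, 0.406, 0.819 and 0.377 CPM in ASO-Ctr, 0.487, 0.356, 1.18 and 0.426 in sO-L1, and 1.77, 0.97, 1.51 and 1.19 in ASO-L1, and rose by 1.29 (SE 0.27, adjusted p = 0.000871) against ASO-Ctr and by 1.22 (SE 0.26, adjusted p = 0.00101) against sO-L1. All ASO-L1 libraries exceeded all ASO-Ctr libraries, but sO-L1 replicate 3 lay within the ASO-L1 range. These levels rest on 336 reads over all 12 libraries, and its exons share bases with an opposite-strand gene of the annotation. CADM2, LSAMP and OPCML, adhesion molecules of the immunoglobulin family, were not called in either comparison. Of these CADM2 had means of 1.28 ± 0.189 CPM in ASO-Ctr, 1.26 ± 0.388 in sO-L1 and 1.32 ± 0.277 in ASO-L1 (SD, n = 4), with a log2 fold change of 0.03 (95% interval -0.38 to 0.44) against ASO-Ctr, while LSAMP and OPCML averaged under 0.5 CPM in every group.

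**Figure D2:**
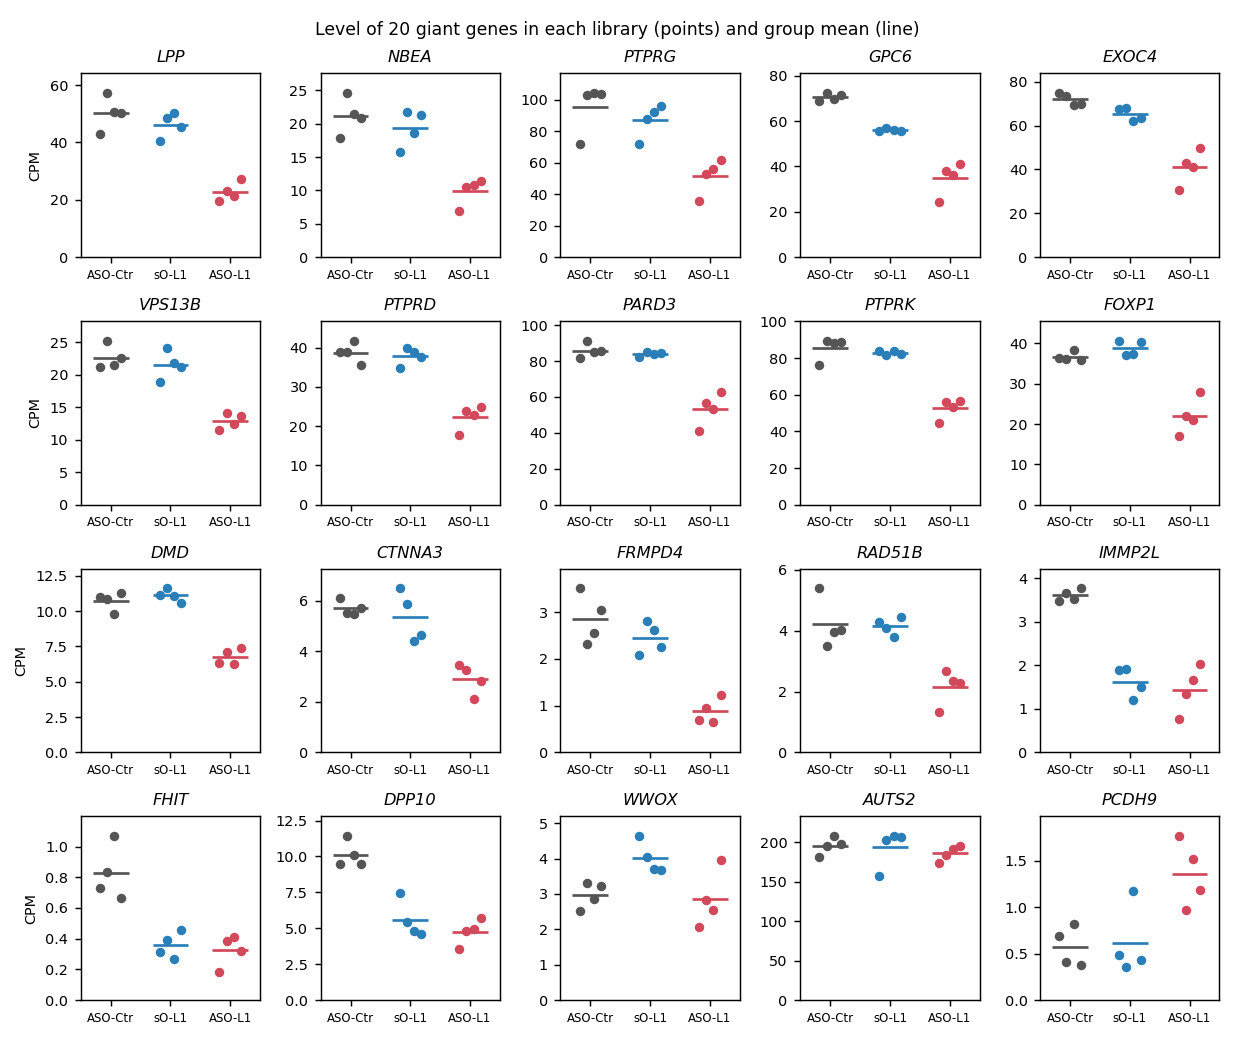
CPM (y axis, from 0) of 20 giant genes in each of the 12 libraries (points) with the group mean (line), by oligo group (x axis). In LPP, from 19.6 to 27.1 CPM in ASO-L1 against 40.4 to 57.3 in the other groups, ASO-L1 alone is low, whereas IMMP2L, DPP10 and FHIT are low in sO-L1 and ASO-L1 alike and AUTS2 overlaps between all groups.

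Receptors and signalling genes had 5 of 9 tested, and all 5 of these fell in both comparisons. PTPRG, PTPRD and PTPRK are receptor-type tyrosine phosphatases. PTPRG was at 71.6, 103, 104 and 104 CPM in ASO-Ctr, 71.6, 87.8, 92 and 95.9 in sO-L1, and 35.6, 52.8, 55.9 and 62 in ASO-L1, so replicate 1 was low in every group, and its log2 fold changes were -0.90 (SE 0.06, adjusted p = 9.87e-09) and -0.77 (SE 0.06, adjusted p = 4.27e-08). PTPRD was at 38.8, 38.9, 41.8 and 35.5 CPM in ASO-Ctr, 34.8, 39.9, 39 and 37.7 in sO-L1, and 17.8, 23.9, 23 and 25 in ASO-L1, and fell by 0.79 (SE 0.07, adjusted p = 4.13e-07) and 0.76 (SE 0.07, adjusted p = 6.41e-07). PTPRK was at 76, 89.5, 88.4 and 88.7 CPM in ASO-Ctr, 84, 81.7, 83.6 and 82.4 in sO-L1, and 44.6, 56, 53.1 and 56.8 in ASO-L1, with log2 fold changes of -0.70 (SE 0.06, adjusted p = 9.91e-08) and -0.66 (SE 0.06, adjusted p = 1.87e-07). In each of these phosphatases the highest ASO-L1 library stayed below the lowest of the other 8. GPC6, a glypican that binds growth factors at the cell surface, was at 68.8, 72.4, 69.9 and 71.5 CPM in ASO-Ctr, 55.6, 57.1, 55.9 and 55.8 in sO-L1, and 24.2, 38.2, 36 and 41.1 in ASO-L1, 3 groups that did not overlap. The difference between ASO-L1 and ASO-Ctr was -1.02 (SE 0.09, adjusted p = 1.71e-07) on the log2 scale, and that between ASO-L1 and sO-L1 -0.70 (SE 0.09, adjusted p = 9.85e-06). PRKG1, a kinase switched on by cyclic GMP, was at 17.2, 19.4, 15 and 19.1 CPM in ASO-Ctr, 20.1, 18.2, 17.1 and 18 in sO-L1, and 11.3, 12.7, 11.4 and 13.3 in ASO-L1 and fell by 0.54 (SE 0.08, adjusted p = 3.5e-05) and 0.59 (SE 0.08, adjusted p = 1.2e-05).

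Traffic and cytoskeleton genes had 6 of 6 tested and called lower in both comparisons. NBEA, a BEACH-domain protein of membrane traffic, was at 17.9, 24.6, 21.4 and 20.9 CPM in ASO-Ctr, 15.8, 21.7, 18.5 and 21.2 in sO-L1, and 6.85, 10.5, 10.8 and 11.4 in ASO-L1. That is a fall of 1.11 (SE 0.08, adjusted p = 4.17e-08) against ASO-Ctr and of 0.97 (SE 0.08, adjusted p = 1.3e-07) against sO-L1, with no overlap. The exons of NBEA share bases with an opposite-strand gene, as do those of LPP, PTPRG, PTPRK, GPC6 and FOXP1 among others. EXOC4, a subunit of the exocyst that tethers vesicles to the plasma membrane, was at 74.9, 73.3, 69.6 and 69.9 CPM in ASO-Ctr, 67.7, 67.8, 62.1 and 63.7 in sO-L1, and 30.6, 42.8, 41.1 and 49.9 in ASO-L1, and its log2 fold changes were -0.81 (SE 0.09, adjusted p = 2.49e-06) and -0.67 (SE 0.09, adjusted p = 1.67e-05). VPS13B, which works in lipid transfer at the Golgi, was at 21.1, 25.2, 21.4 and 22.5 CPM in ASO-Ctr, 18.9, 24.1, 21.9 and 21.2 in sO-L1, and 11.5, 14.2, 12.4 and 13.6 in ASO-L1, with -0.80 (SE 0.06, adjusted p = 7.68e-08) and -0.74 (SE 0.06, adjusted p = 1.79e-07). DMD encodes dystrophin, the link from actin to the muscle membrane, and at 2.24 Mb is among the longest human genes. It was at 11, 10.9, 9.82 and 11.3 CPM in ASO-Ctr, 11.2, 11.6, 11.1 and 10.6 in sO-L1, and 6.34, 7.08, 6.29 and 7.36 in ASO-L1, and fell by 0.66 (SE 0.08, adjusted p = 8.15e-06) against ASO-Ctr and by 0.72 (SE 0.08, adjusted p = 3.13e-06) against sO-L1, with all ASO-L1 libraries below all others. TBC1D5, a regulator of the Rab7 GTPase and retromer, had means of 42.6 ± 3.36 CPM in ASO-Ctr, 40.7 ± 3.25 in sO-L1 and 30.8 ± 3.41 in ASO-L1 (SD, n = 4), and the log2 fold change was -0.47 (SE 0.06, adjusted p = 5.26e-06) and -0.40 (SE 0.06, adjusted p = 2.3e-05). DIAPH2, a formin that builds actin filaments, varied more between replicate numbers than between groups, from 74.9 to 145.9 CPM in ASO-Ctr and sO-L1 and from 56.2 to 107.9 in ASO-L1. Within each number ASO-L1 was lower than both, by 0.42 (SE 0.06, adjusted p = 1.97e-05) and 0.29 (SE 0.06, adjusted p = 0.000562) in the fit with the replicate number as a block, and neither call held without that block.

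Guidance and synapse genes had 5 of 9 tested, with 3 lower in each comparison. FRMPD4, a postsynaptic scaffold, had the largest fold change of the 41 genes. It was at 3.51, 2.31, 2.55 and 3.04 CPM in ASO-Ctr, 2.09, 2.81, 2.62 and 2.26 in sO-L1, and 0.685, 0.946, 0.653 and 1.22 in ASO-L1, and its log2 fold changes were -1.66 (SE 0.21, adjusted p = 8.68e-06) and -1.48 (SE 0.21, adjusted p = 2.85e-05), with no overlap between ASO-L1 and the other groups. ROBO1, the receptor for the guidance cue Slit, had means of 100.2 ± 2.61 CPM in ASO-Ctr, 93.8 ± 4.18 in sO-L1 and 67.8 ± 8.1 in ASO-L1 (SD, n = 4) and fell by 0.57 (SE 0.06, adjusted p = 1.53e-06) and 0.47 (SE 0.06, adjusted p = 1.06e-05). Its relative ROBO2 had means of 0.833 ± 0.133 CPM in ASO-Ctr, 0.993 ± 0.267 in sO-L1 and 0.588 ± 0.329 in ASO-L1 (SD, n = 4); the difference from ASO-Ctr was -0.49 (SE 0.30, adjusted p = 0.203), not called, and it was called lower than sO-L1 at -0.77 (SE 0.29, adjusted p = 0.0412), a call that failed in 11 of 16 fits with libraries left out, each without a library of replicate number 1, 2 or 3 (adjusted p up to 0.201). DLG2, a postsynaptic scaffold of 2.17 Mb, was not called, with means of 2.6 ± 0.086 CPM in ASO-Ctr, 2.16 ± 0.195 in sO-L1 and 2.73 ± 0.266 in ASO-L1 (SD, n = 4). Its log2 fold change was 0.08 against ASO-Ctr (95% interval -0.21 to 0.37) and 0.34 against sO-L1 (adjusted p = 0.0543).

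Nuclear proteins had 7 of 7 tested, with 4 lower against ASO-Ctr and 3 against sO-L1. FOXP1, a forkhead transcription factor, was at 36.3, 36, 38.5 and 35.8 CPM in ASO-Ctr, 40.7, 37.2, 37.4 and 40.2 in sO-L1, and 16.9, 21.9, 20.9 and 28.1 in ASO-L1, with log2 fold changes of -0.74 (SE 0.09, adjusted p = 7.58e-06) and -0.83 (SE 0.09, adjusted p = 2.22e-06). RAD51B, which acts in repair by homologous recombination, was at 5.39, 3.51, 3.97 and 4.03 CPM in ASO-Ctr, 4.3, 4.09, 3.79 and 4.45 in sO-L1, and 1.33, 2.67, 2.34 and 2.29 in ASO-L1, and fell by 0.93 (SE 0.18, adjusted p = 0.000546) and 0.92 (SE 0.18, adjusted p = 0.000499). In both genes the ASO-L1 libraries lay below all others. RBFOX1, a splicing regulator and at 2.47 Mb the longest of the 52, was at 1.11, 0.573, 0.315 and 0.406 CPM in ASO-Ctr, 1.06, 0.605, 0.294 and 0.393 in sO-L1, and 0.685, 0.218, 0.0687 and 0.29 in ASO-L1. Those groups overlap, replicate 1 was high in every group, and its fold changes of -0.98 (SE 0.32, adjusted p = 0.0202) and -0.96 (SE 0.32, adjusted p = 0.0205) rest on 207 reads in all. The RBFOX1 calls were lost without the block and in 6 and 5 of 16 fits with libraries left out, all of them without a library of replicate number 2 or 3 (adjusted p up to 0.114 and 0.143). AUTS2, which works with a Polycomb complex, had the highest mean CPM of the giant genes and did not pass the test. Its ASO-Ctr libraries were at 180.8, 194.5, 207.6 and 197.3 CPM, the sO-L1 libraries at 156.5, 202, 207.8 and 206.3, and the ASO-L1 libraries at 173.7, 184.2, 191 and 194.7. The log2 fold change was -0.07 against ASO-Ctr, with a 95% interval of -0.17 to 0.03. RORA, a nuclear receptor, had means of 3.13 ± 0.839 CPM in ASO-Ctr, 2.3 ± 0.447 in sO-L1 and 2.77 ± 0.953 in ASO-L1 (SD, n = 4), and was not called either, nor was ZBTB20.

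Of enzymes and mitochondrial proteins 5 of 7 were tested, and 2 fell against ASO-Ctr (40%) and 1 against sO-L1 (20%). Over all genes 23.1% and 22.9% were called lower, shares that so few genes cannot be told apart from. Here the order of the groups differed from gene to gene. IMMP2L, a peptidase of the inner mitochondrial membrane, was at 3.47, 3.65, 3.53 and 3.77 CPM in ASO-Ctr, 1.89, 1.9, 1.21 and 1.51 in sO-L1, and 0.757, 1.33, 1.65 and 2.03 in ASO-L1. Both LINE1 oligo groups lay below all ASO-Ctr libraries, with log2 fold changes of -1.32 (SE 0.21, adjusted p = 7.12e-05) for ASO-L1 and -1.12 (SE 0.20, adjusted p = 0.0172) for sO-L1, whereas ASO-L1 and sO-L1 overlapped and differed by -0.20 (95% interval -0.66 to 0.27). FHIT, a hydrolase of diadenosine polyphosphates, showed the same order at low level, with 0.728, 0.835, 1.07 and 0.666 CPM in ASO-Ctr, 0.315, 0.392, 0.265 and 0.458 in sO-L1, and 0.18, 0.388, 0.412 and 0.319 in ASO-L1. It fell by 1.32 (SE 0.31, adjusted p = 0.0021) against ASO-Ctr, and differed by -0.13 (SE 0.34, adjusted p = 0.776) from sO-L1. WWOX, an oxidoreductase with WW domains, was at 2.53, 3.32, 2.87 and 3.22 CPM in ASO-Ctr, 4.64, 4.04, 3.71 and 3.67 in sO-L1, and 2.05, 2.84, 2.54 and 3.97 in ASO-L1. ASO-L1 overlapped ASO-Ctr at -0.07 (SE 0.17, adjusted p = 0.75), and was called lower than sO-L1 at -0.50 (SE 0.16, adjusted p = 0.0162), in 3 of 4 replicate numbers, a call that failed in 5 of 16 fits with libraries left out (replicate number 1, 2 or 3, sO-L1 replicate 1, or ASO-L1 replicate 2, adjusted p up to 0.0974). Among these 3 fragile-site genes the values thus range from the deep fall of IMMP2L and FHIT to no call against ASO-Ctr in WWOX. MACROD2, which removes ADP-ribose from proteins, had means of 0.863 ± 0.106 CPM in ASO-Ctr, 0.86 ± 0.162 in sO-L1 and 0.794 ± 0.225 in ASO-L1 (SD, n = 4), and NAALADL2 averaged under 0.5 CPM in each group. Neither was called.

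The 11 genes that did not pass the filter had at most 0.303 CPM in any library and 11 to 66 reads over all 12 libraries. Among them were the synaptic and guidance genes GRID1, IL1RAPL1, CSMD1 and CSMD3, the receptors and signalling genes LRP1B, ERBB4, ALK and GPC5, the adhesion gene PCDH15, and the enzyme DPYD. Most of these levels are at or near that of 3 reads, and edgeR gave no test at the filter used. ALK, a receptor tyrosine kinase picked out here after its values were seen, had 6, 7, 2 and 1 reads in ASO-Ctr, 6, 17, 10 and 8 in sO-L1, and 2, 4, 1 and 2 in ASO-L1. Its sO-L1 libraries, at 0.172 to 0.303 CPM, lay above its ASO-L1 libraries, at 0.0344 to 0.097 CPM, and the authors' deposited table gives it a log2 fold change of -1.67 (adjusted p = 0.0222) for ASO-L1 against sO-L1. With no filter 27 giant genes were called lower against sO-L1 in edgeR, in place of 26, and 29 against ASO-Ctr, as with the filter.

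In sO-L1 against ASO-Ctr 2 of the 41 giant genes were called lower, IMMP2L and DPP10, and 0 higher, where 0.220% of all genes were called lower and 0.0695% higher. Their median log2 fold change was -0.0954, against 0.000801 over all genes. DPP10, a partner of potassium channels with no peptidase activity, was at 9.5, 11.4, 10.1 and 9.45 CPM in ASO-Ctr, 7.45, 5.41, 4.82 and 4.58 in sO-L1, and 3.53, 4.8, 4.95 and 5.74 in ASO-L1. It fell by 0.87 (SE 0.15, adjusted p = 0.0128) in sO-L1 and by 1.08 (SE 0.15, adjusted p = 2.49e-05) in ASO-L1, and both groups lay below all ASO-Ctr libraries. The difference between ASO-L1 and sO-L1 was -0.22 (95% interval -0.55 to 0.12), which was not called. Leaving out a library or number lost the DPP10 call in 7 of 16 fits, all without libraries of numbers 2, 3 or 4 (adjusted p up to 0.389), and the IMMP2L call in 10, among them those without any 1 ASO-Ctr library or without sO-L1 replicate 2, 3 or 4 (up to 0.329). In 9 of the 41 genes all sO-L1 libraries lay below all ASO-Ctr libraries, against 1.99% of all genes. These were IMMP2L, DPP10, FHIT, PARD3B, GPC6, MAGI1, SMYD3, EXOC4 and DLG2. WWOX alone had sO-L1 above ASO-Ctr without overlap, at 0.43 (SE 0.16, adjusted p = 0.487), against 1.24% of all genes.

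The values behind these separations were smaller than those of ASO-L1 in most genes, and apart from IMMP2L and DPP10 they did not pass the test. GPC6 differed by -0.33 (SE 0.09, adjusted p = 0.187) between sO-L1 and ASO-Ctr, and MAGI1 by -0.23 (SE 0.06, adjusted p = 0.152). FHIT differed by -1.19 (SE 0.29, adjusted p = 0.151). PARD3B, a relative of PARD3, had means of 2.91 ± 0.544 CPM in ASO-Ctr, 1.77 ± 0.272 in sO-L1 and 1.75 ± 0.374 in ASO-L1 (SD, n = 4), so sO-L1 and ASO-L1 were level. It differed from ASO-Ctr by -0.74 (SE 0.16, adjusted p = 0.0649) in sO-L1, and fell by 0.74 (SE 0.16, adjusted p = 0.00108) in ASO-L1. SMYD3, a lysine methyltransferase, had means of 8.59 ± 0.668 CPM in ASO-Ctr, 6.41 ± 0.934 in sO-L1 and 5.89 ± 1.26 in ASO-L1 (SD, n = 4), a difference of -0.41 (SE 0.14, adjusted p = 0.392) in sO-L1 and a fall of 0.54 (SE 0.14, adjusted p = 0.00496) in ASO-L1.

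How many giant genes were called in sO-L1 moved with the libraries and settings of the fit, and the cause was not tested. Without ASO-L1 replicate 1, which is in neither group of this comparison, 7 were called lower (SMYD3, DPP10, PARD3B, FHIT, MAGI1, IMMP2L and GPC6), where 1.37% of all genes were. A fit on the 8 libraries of these groups alone, chosen after seeing the data, called 10 lower, adding PTPRG, EXOC4 and DIAPH2, where 2.26% of all genes were, and 2 higher, CNTNAP2 and WWOX (for WWOX log2 fold change 0.41, adjusted p = 0.0468 in edgeR). Leaving out replicate number 1 gave 7, while leaving out replicate number 2 or 3, ASO-Ctr replicate 2 or 3, or sO-L1 replicate 2, 3 or 4 gave 0, and without the replicate block DPP10 alone was called.

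**Figure D3:**
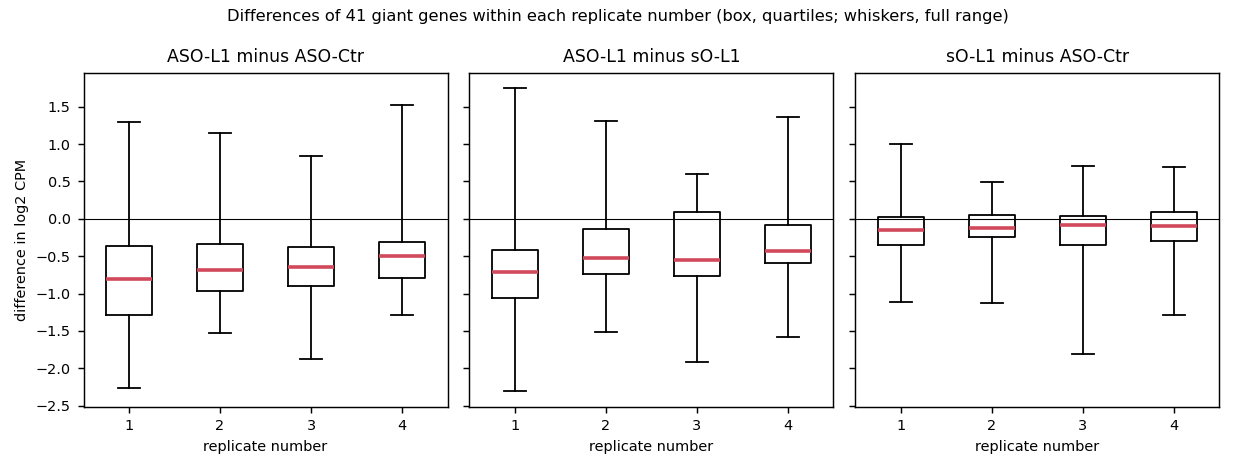
Differences in log2 CPM (y axis) of the 41 giant genes between libraries of the same replicate number (x axis), as boxes of quartiles with the median in red and whiskers over the full range. The medians of ASO-L1 minus ASO-Ctr ran from -0.81 in number 1 to -0.50 in number 4, and those of sO-L1 minus ASO-Ctr from -0.15 to -0.0827.

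The fall after ASO-L1 was seen in every replicate number, by unequal amounts. Within numbers 1, 2, 3 and 4 the median difference of ASO-L1 from ASO-Ctr over the 41 genes was -0.81, -0.69, -0.64 and -0.50, with 35, 36, 37 and 37 of the genes lower. From sO-L1 the medians were -0.72, -0.52, -0.55 and -0.43, with 35, 34, 29 and 33 lower. The ASO-L1 library of number 1 thus lay farthest from its controls, and it was also the lowest of its group in LPP, GPC6, EXOC4, PARD3, FOXP1 and IMMP2L among others. Between sO-L1 and ASO-Ctr the medians were -0.15, -0.13, -0.0827 and -0.0949. Over all genes tested, the medians within a number ran from -0.00821 to -0.00487 for ASO-L1 against ASO-Ctr. They ran from -0.00768 to -0.00279 for ASO-L1 against sO-L1, and from -0.00582 to 0.0073 for sO-L1 against ASO-Ctr.

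Other genes of long span were called lower in like proportion. A second list, of genes taken as giant from general knowledge, was written with results of these data known, and the spans of its genes are not reported here. It had 74 of its 89 genes in the table tested. Of these, 53 fell (71.6%) and 0 rose against ASO-Ctr, where 23.1% of all genes were called lower and 21.2% higher. The median log2 fold change of the list was -0.52. Its lowest adjusted p-values were those of SYN3, a synapsin of synaptic vesicles, at 16 ± 2.42 CPM in ASO-Ctr, 15.9 ± 1.49 in sO-L1 and 5.39 ± 0.96 in ASO-L1 (SD, n = 4; adjusted p = 5.31e-08 against ASO-Ctr in edgeR), and RYR2, a calcium channel of the sarcoplasmic reticulum, at 6.39 ± 0.73, 6.17 ± 1.18 and 2.38 ± 0.59 CPM (adjusted p = 2.6e-07). Against sO-L1 46 fell (62.2%) and 0 rose, where 22.9% of all genes were called lower and 21.1% higher. In sO-L1 against ASO-Ctr 3 fell (4.05%), against 0.220% of all genes.

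Over 14021 protein-coding genes tested with a known span, the share called lower in ASO-L1 against ASO-Ctr was 16% for spans under 10 kb (2626 genes), 18.9% at 10 to 30 kb (3892), 26.3% at 30 to 100 kb (4543), 41.8% at 100 to 300 kb (2317), 62.1% at 300 to 500 kb (401) and 63.6% over 500 kb (242, the giant genes included). The share called higher went from 29.1% in the shortest class to 1.65% in the longest. Over 500 kb without the listed giant genes, 62.2% of 201 genes were called lower. The classes also differ in level, with a median average log2 CPM of 3.88 under 10 kb and 1.87 over 500 kb, and genes with few reads are called less readily. Among genes whose average log2 CPM reached 3 the shares called lower were 18.6% under 10 kb and 87.2% of 86 genes over 500 kb. Against sO-L1 the shares called lower were 16.2% under 10 kb and 55.8% over 500 kb, and in sO-L1 against ASO-Ctr 0% and 4.96%.

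**Figure D4:**
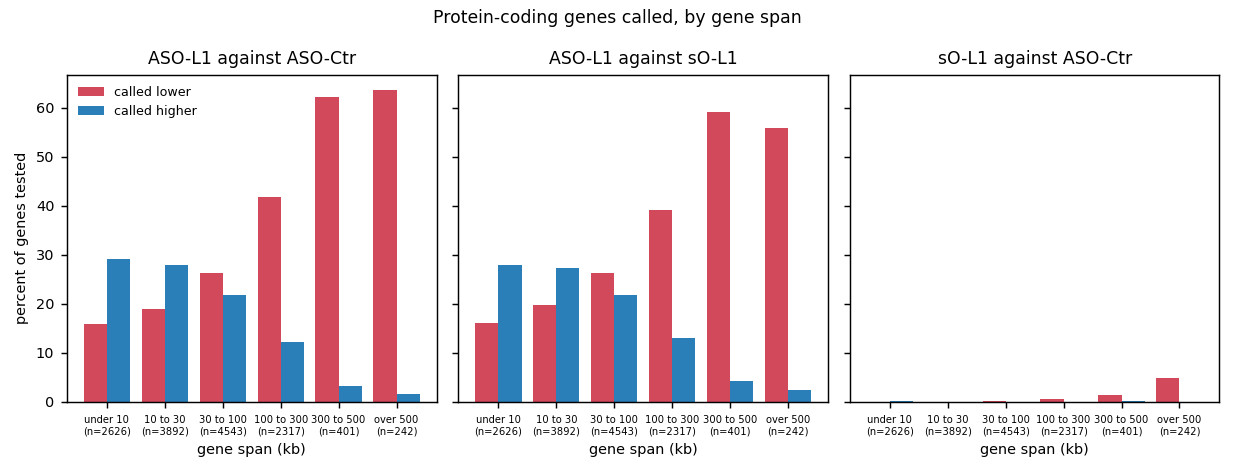
Percent of protein-coding genes tested (y axis, from 0) that were called lower (red) or higher (blue) in each class of gene span (x axis, kb, with the number of genes). Against ASO-Ctr the share lower rises from 16% under 10 kb to 63.6% over 500 kb, and in sO-L1 against ASO-Ctr it reaches 4.96%.

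Span is not the only length that goes with the calls. By longest intron the share called lower against ASO-Ctr went from 18.1% under 10 kb to 59.7% over 300 kb, and by exonic length from 15% under 2 kb to 43.1% over 16 kb. In genes spanning under 30 kb the share lower was 14.6% for exonic lengths under 2 kb, 20.1% for 4 to 8 kb and 18% over 8 kb, while the share higher went from 24.7% to 32.2% and the median log2 fold change from 0.03 to 0.05 between the shortest and the longest class. So within short genes the share lower did not keep rising with exonic length. Among the 41 giant genes themselves span and fold change showed little relation, with a Spearman's rho of 0.10 across genes. Over the 14021 genes rho was -0.25, of the opposite sign, but the giant genes cover only spans of 0.552 to 2.47 Mb. Both values are given as a description, since genes of the same libraries are not independent replicates. PTPRK, the shortest at 0.552 Mb, fell by 0.70, whereas AUTS2 at 1.2 Mb and DLG2 at 2.17 Mb were not called.

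**Figure D5:**
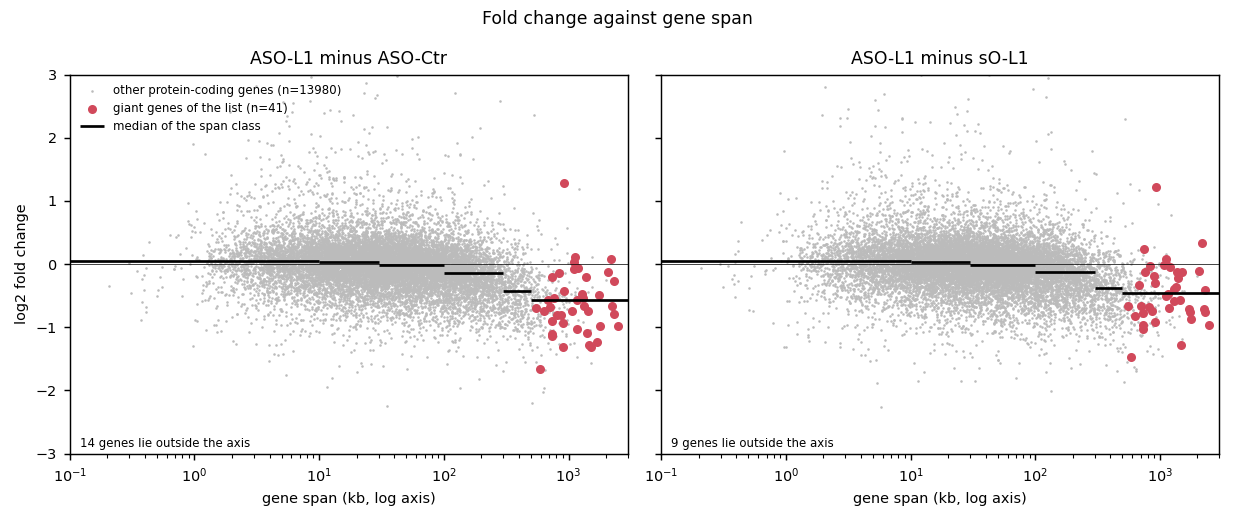
Log2 fold change (y axis) of protein-coding genes tested against gene span (x axis, kb, log scale), with the giant genes marked and the median of each span class as a line. The class medians go from 0.05 under 10 kb to -0.58 over 500 kb against ASO-Ctr, and the giant genes spread from -1.66 to 1.29.

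Genes that act on long transcripts were called in both directions. Of 36 tested elongation factors and topoisomerases, from a list written with results of these data known, 13 rose (36.1%) and 5 fell (13.9%) in ASO-L1 against ASO-Ctr, where 21.2% of all genes rose and 23.1% fell. TCEA1, an elongation factor that rescues stalled polymerase, rose from 362 ± 19.1 to 533 ± 87.8 CPM (log2 fold change 0.55, SE 0.07, adjusted p = 6.86e-06 in edgeR), and PCF11, a termination factor, rose from 80.4 ± 4.09 to 107.4 ± 12.9 CPM. TOP2B, a topoisomerase that relieves strain in long genes, fell from 558 ± 34.1 to 461 ± 19.7 CPM (log2 fold change -0.27, SE 0.04, adjusted p = 2.24e-05), and CDK9, the kinase that releases paused polymerase, fell from 77.5 ± 3.82 to 62 ± 3.85 CPM. Of 24 RNA-binding proteins and spliceosome genes 5 rose (20.8%) and 6 fell (25%), shares close to those over all genes. Among them U2AF1, which binds the end of introns, rose by 0.33 (SE 0.04, adjusted p = 3.55e-06) and TARDBP, which represses cryptic exons, by 0.29. KHDRBS1, a splicing regulator, fell by 0.43 (SE 0.04, adjusted p = 3.82e-07) and HNRNPM by 0.32. In sO-L1 against ASO-Ctr 0 of both lists were called by edgeR.

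In the authors' deposited table for ASO-L1 against sO-L1, 48 of the 52 genes are listed, of which 26 have a negative and 1 a positive log2 fold change at an adjusted p under 0.05, where 16.7% of the 20856 genes listed are lower. The authors' deposited table gives LPP at -1.02, FRMPD4 at -1.49, NBEA at -0.97, DMD at -0.72 and PCDH9 at 1.31. IMMP2L is at -0.20 there and DPP10 at -0.21, with adjusted p of 0.528 and 0.317 in the authors' deposited table. Of the 27 giant genes called here in that comparison, 26 are called in the authors' table in the same direction. ROBO2 is the exception, with an adjusted p of 0.0562 in the authors' deposited table. Both results rest on the same ASO-L1 and sO-L1 libraries, so the match is not independent evidence.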

How the data were processed

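The values tested were raw counts of reads per gene in 12 libraries, deposited after removal of duplicate reads, per the labels. The submitters' processing notes name hg19, TopHat2 2.0.13, Subread 1.5.0 (featureCounts) and Trim Galore 0.4.0. The gene annotation and the strand setting of the counting are not given in the sources used here, so overlapping opposite-strand genes may share reads. Exons of 15 of the 41 tested genes share bases with such a gene in GENCODE 29. Of these, 10 fell against ASO-Ctr: CTNNA2, MAGI2, LPP, PTPRG, PTPRK, PRKG1, GPC6, FOXP1, NBEA and DIAPH2. Among the rest, PCDH9 rose, and DLG2, ZBTB20, RORA and MACROD2 were not called. Of the other 26 tested genes, 19 fell. Removal of duplicates lowers the counts of abundant genes most. The authors also deposited a table of log2 normalized values with a batch correction, not used here, and a comparison table of log2 fold changes with the authors' p-value and adjusted p-value for ASO-L1 against sO-L1. Its deposited score columns (moderated statistic and log odds) were not used.

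The quasi-likelihood test of edgeR 4.0.16 (R 4.3.3) was used, two-sided, after TMM scaling and a filter (filterByExpr, minimum count 10). All 12 libraries entered 1 model of group plus replicate number (the block). Adjusted p-values are Benjamini-Hochberg values over 17264 genes, called under 0.05. The standard error is the fold change divided by the root of F, and 95% intervals use the t distribution with the moderated degrees of freedom. Intervals cover the spread between these libraries as the model estimates it, and floors cover counting error only. The replicate numbers pair the libraries: in 10549 genes averaging 200 counts or more, deviations from the group mean correlated at r = 0.216 to 0.725 in all 12 same-number pairs. The median in other pairs was -0.223. That value is not an independent level, since centring on the group mean pushes other pairs below 0 when same-number pairs are above it. No 2 libraries were identical (0 of 66 pairs). The test was checked on simulated data. Alternatives were no block, other scaling and filters, DESeq2 1.42.0, and leaving out each library or replicate number. A fit on the 2 groups compared, the genes with a mean of at least 2 CPM, and the classes of level, intron and exon length were added after seeing the data.

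The genes and all lists were chosen with earlier results of these data known. Every giant gene enters the counts, and 1 that did not pass the filter is not reported here by name. Values in every library are given for genes called in both ASO-L1 comparisons in 1 direction with log2 fold changes of at least 0.5 either way, for those called in sO-L1 against ASO-Ctr, and for DMD, FHIT, WWOX, IMMP2L and RAD51B. AUTS2 was given in full after its values were seen. Of other lists the 2 risen and 2 fallen genes with the smallest adjusted p are named.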

Additional observations from a re-analysis of the deposited data

Results flagged for a closer look

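Each of the 41 tested genes was checked in each group of 4 libraries, 123 groups in all, for a library far from the other 3 (Dixon's test), which chance alone gives in about 1 of 20 groups. It was met in 5. OPCML in ASO-Ctr replicate 3 was at 0.472 CPM, against 0.145 to 0.191 in the other ASO-Ctr libraries. PCDH9 in sO-L1 replicate 3 was at 1.18 CPM, against 0.356 to 0.487, and this library is the one that overlaps the ASO-L1 range. PTPRG in ASO-Ctr replicate 1 was at 71.6 CPM, against 103 to 104, and PTPRK in the same library was at 76 CPM, against 88.4 to 89.5. AUTS2 in sO-L1 replicate 1 was at 157 CPM, against 202 to 208.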

How the results depend on the processing

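No called giant gene changed sign under any alternative run. Against ASO-Ctr 29 giant genes were called lower, and against sO-L1 26. Without the replicate block these counts were 27 and 23: RBFOX1 and DIAPH2 were lost against ASO-Ctr, and ROBO2, RBFOX1 and DIAPH2 against sO-L1. Other scaling, no filter and the fit on the 2 groups compared lost none of the calls in these comparisons, nor did a minimum count of 30 among genes it tested, and DESeq2 lost ROBO2 and RBFOX1 against sO-L1. Leaving out 1 library or number lost 6 of 480 values against ASO-Ctr, all of RBFOX1, and 25 of 432 against sO-L1, of NRXN3, ROBO2, RBFOX1 and WWOX. Giant genes called higher against sO-L1 were 2 at a minimum count of 30 and 1 to 2 with libraries left out (DLG2 was the second).

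In sO-L1 against ASO-Ctr the counts moved with most settings, and the cause was not tested. Giant genes called lower were 1 without the block, 7 with no filter, 5 by DESeq2, 10 in the fit on these 2 groups and 0 to 7 with libraries left out. Giant genes called higher were 2 in the fit on these 2 groups and 0 to 1 with libraries left out. Over all genes, 12 were called higher: 2 without the block, 46 with no filter, 28 by DESeq2, 263 on the 2 groups, 1 to 169 with libraries left out. Of all genes, 38 were called lower: 15 without the block, 95 with no filter, 67 by DESeq2, 377 on the 2 groups, 8 to 241 with libraries left out. The highest leave-out counts are those without ASO-L1 replicate 1. Among genes over 500 kb the share lower was 10.5% at an average log2 CPM of at least 3, against 4.96%. With libraries left out DPP10 failed in 7 of 16 fits (edgeR's adjusted p reached 0.389) and IMMP2L in 10 (0.329). Giant genes under 0.5 CPM are limited by depth.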

Other observations

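Few short genes that lie inside the giant genes could be tested. In GENCODE 29, 5 tested genes spanning under 100 kb lie wholly within a giant gene. FLRT3, a guidance protein encoded within MACROD2 on the opposite strand, rose from 2.27 to 3.32 CPM in ASO-L1 against ASO-Ctr (log2 fold change 0.56, SE 0.19, adjusted p = 0.0209 in edgeR), but differed by 0.10 from sO-L1 (adjusted p = 0.681). MACROD2 itself was not called, at -0.13 against ASO-Ctr. LRRTM1, a synaptic protein within CTNNA2, was at 6.18 and 5.58 CPM and differed by -0.11 (SE 0.12), where CTNNA2 itself fell. CSTF2T, a polyadenylation factor within PRKG1, was at 103.4 and 99.0 CPM and differed by -0.06 (SE 0.04). LRRN3 within IMMP2L differed by -0.09 and RPA4 within DIAPH2 by 0.45, both at under 0.4 CPM. So 1 of the 5 rose, 0 fell in edgeR and 4 were not called, where 23.1% of all genes were called lower and 21.2% higher. With so few genes, these counts cannot be told apart from the shares over all genes. The 5 were found from the annotation with the giant genes' values known, and no test of nested genes against their hosts was made.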
